A study of Mus musculus with 6 samples.

Results

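Red blood cell transcripts were examined in liver RNA of Nrf2 knockout mice, set against wild-type mice, all on a C57B/SV129 background. Nrf2 is a transcription factor, encoded by Nfe2l2, that drives detoxification and antioxidant genes, and the study concerns liver regeneration and insulin or IGF-1 resistance in mice without it. The livers came from mice aged 10 weeks, and 3 arrays were hybridised per genotype, each with RNA pooled from 3 animals, so that the 6 arrays measure pools and not single mice. The labels name no injury, diet or treatment, do not mention perfusion of the livers, and do not say how the knockout allele was made or whether pools shared animals. The p-values below therefore measure the spread between these pools.

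The members were the probe sets annotated to exactly 1 gene symbol among Hba-a1, Hbb-b1, Hbb-b2, Alas2, Bpgm and Slc4a1. The rule itself reads only the annotation. The rule found 10 of 45037 probe sets, standing for 5 of the 6 genes: 3 for Bpgm, 3 for Slc4a1, 2 for Hbb-b2, 1 for Alas2 and 1 for Hba-a1. Hbb-b1 had 0 probe sets of its own. The brightest globin probe sets on the array, 4 in number, are each annotated to several globin genes and are no members. They are described beside the members as joint signals, from which no single globin can be read. Of the 10 members, 6 were bright enough to be tested (both of Hbb-b2, all 3 of Bpgm and that of Alas2), meaning that their mean log2 intensity reached the median of all probe sets. The single Hba-a1 probe set and all 3 of Slc4a1 lay under it.

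Red blood cells in the circulation have no nucleus and make no new RNA, but they keep messages made during their maturation in the marrow or spleen, most of all in the youngest cells, the reticulocytes. The most abundant of these encode the alpha and beta chains of hemoglobin, which bind heme and carry oxygen. Alas2 is the first and rate-limiting enzyme of heme synthesis in red cell precursors, while hepatocytes use its relative Alas1. Bpgm makes 2,3-bisphosphoglycerate, which lowers the affinity of hemoglobin for oxygen, and Slc4a1 (band 3) exchanges chloride for bicarbonate and anchors the membrane skeleton. A piece of liver holds blood in its sinusoids and vessels. Its level of these messages therefore moves both with the blood it holds and with the RNA content of the red cells, and in these bulk samples fewer cells and less RNA per cell cannot be told apart.

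The stretches upstream of the gene starts are shown for the members in the RefSeq promoter table. A link between their letters and the variation from pool to pool, given further on, was not tested. Each is the 250 bases before the start, 5′ to 3′ on the gene's strand, in build GRCm38.p6: chr11:32283422-32283671 (+) for Hba-a1, chrX:150547167-150547416 (+) for Alas2 and chr6:34476106-34476355 (+) for Bpgm. Capitals mark matches on either strand to AGATAA or TGATAA (bound by GATA factors), CACCC (bound by Klf factors), CCAAT and TATAA.
Hba-a1: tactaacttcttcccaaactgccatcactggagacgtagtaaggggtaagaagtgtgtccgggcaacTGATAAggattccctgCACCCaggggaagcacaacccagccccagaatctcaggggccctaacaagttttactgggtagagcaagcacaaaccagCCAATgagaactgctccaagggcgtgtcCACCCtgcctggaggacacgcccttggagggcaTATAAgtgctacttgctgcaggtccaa
Alas2: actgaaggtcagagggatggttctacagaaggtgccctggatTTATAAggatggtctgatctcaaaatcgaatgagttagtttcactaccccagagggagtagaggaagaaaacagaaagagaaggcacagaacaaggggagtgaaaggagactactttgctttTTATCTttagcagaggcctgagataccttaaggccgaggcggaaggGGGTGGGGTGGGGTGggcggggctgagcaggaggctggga
Bpgm: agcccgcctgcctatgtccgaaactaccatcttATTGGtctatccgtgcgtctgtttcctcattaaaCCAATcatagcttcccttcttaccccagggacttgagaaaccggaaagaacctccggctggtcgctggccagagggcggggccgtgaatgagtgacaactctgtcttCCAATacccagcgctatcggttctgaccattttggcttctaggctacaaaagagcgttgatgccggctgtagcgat
The Hba-a1 stretch held 1 TGATAA, 2 CACCC, 1 CCAAT and 1 TATAA, the last base of which lies 23 bases before the start. The Alas2 stretch held 1 AGATAA and 3 CACCC, all read on the opposite strand, and 2 overlapping matches to TATAA, the nearer ending 203 bases before the start. The Bpgm stretch held 3 CCAAT and none of the other letters searched. Over all 32851 promoter windows of this length, AGATAA was present in 9.99%, TGATAA in 7.94%, CACCC in 52%, CCAAT in 33.8% and TATAA in 22.8%. The NF-E2 site TGAGTCA and the antioxidant response element core TGACNNNGC, searched likewise, were in 4.46% and 10.2% of the windows and had 0 matches in these. The table has no entry under the names Hbb-b1, Hbb-b2 and Slc4a1. A match describes letters only.

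The arrays were checked first. The brighter Nfe2l2 probe set read 5.74, 7.40 and 6.90 in knockout pools, against 696, 598 and 625 in wild-type pools, so all 6 arrays matched their genotype labels there. A dimmer Nfe2l2 probe set read 25.1, 27.9 and 24.4 in knockout pools, against 34.4, 20.2 and 22.3 in wild-type pools. The hepatocyte marker gene Apoa1 was bright on every array, between 15598 and 16555 in knockout pools, against 16034 to 16405 in wild-type pools. Other hepatocyte markers were dimmer, down to Ass1 at 147 to 220 in knockout pools, against 167 to 324 in wild-type pools. Trimmed mean intensity ran from 92.7 to 132, a difference in overall brightness that normalization between arrays removes, so that the order of pools is given below on the normalized log2 scale. The ratio of 3′ to 5′ actin signal, which follows RNA integrity, was 1.942 to 2.005 in knockout pools, against 1.772 to 1.936 in wild-type pools. The groups did not overlap in this ratio. They overlapped in the same ratio for Gapdh, 0.725 to 0.793 in knockout pools, against 0.756 to 0.767 in wild-type pools. The part of RNA integrity in the results was not tested.

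No red blood cell probe set passed the test of a difference between the genotypes. Among the 6 tested members 0 passed a limma adjusted p of 0.05, and 0 had an unadjusted p under 0.05. Over all 22519 tested probe sets, 32 passed, which is 0.142%, and 7.63% had an unadjusted p under 0.05. The 4 dim members were read from a fit without the filter, in which 0.0444% of all probe sets passed and 6.4% had an unadjusted p under 0.05, and 0 of the 4 did either. In the tested set 3 members were higher and 3 lower in the knockout, with a median difference of 0.04 log2, against 0.00 over all tested probe sets, of which 50.8% were higher. The knockout and wild-type pools did not overlap at 1 of the 6 tested members, as at 13.4% of all tested probe sets, and there the knockout was higher, as at 6.81% of all. A call that is missed does not show that the levels were equal, so the interval of each difference is given.

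**Figure D1:**
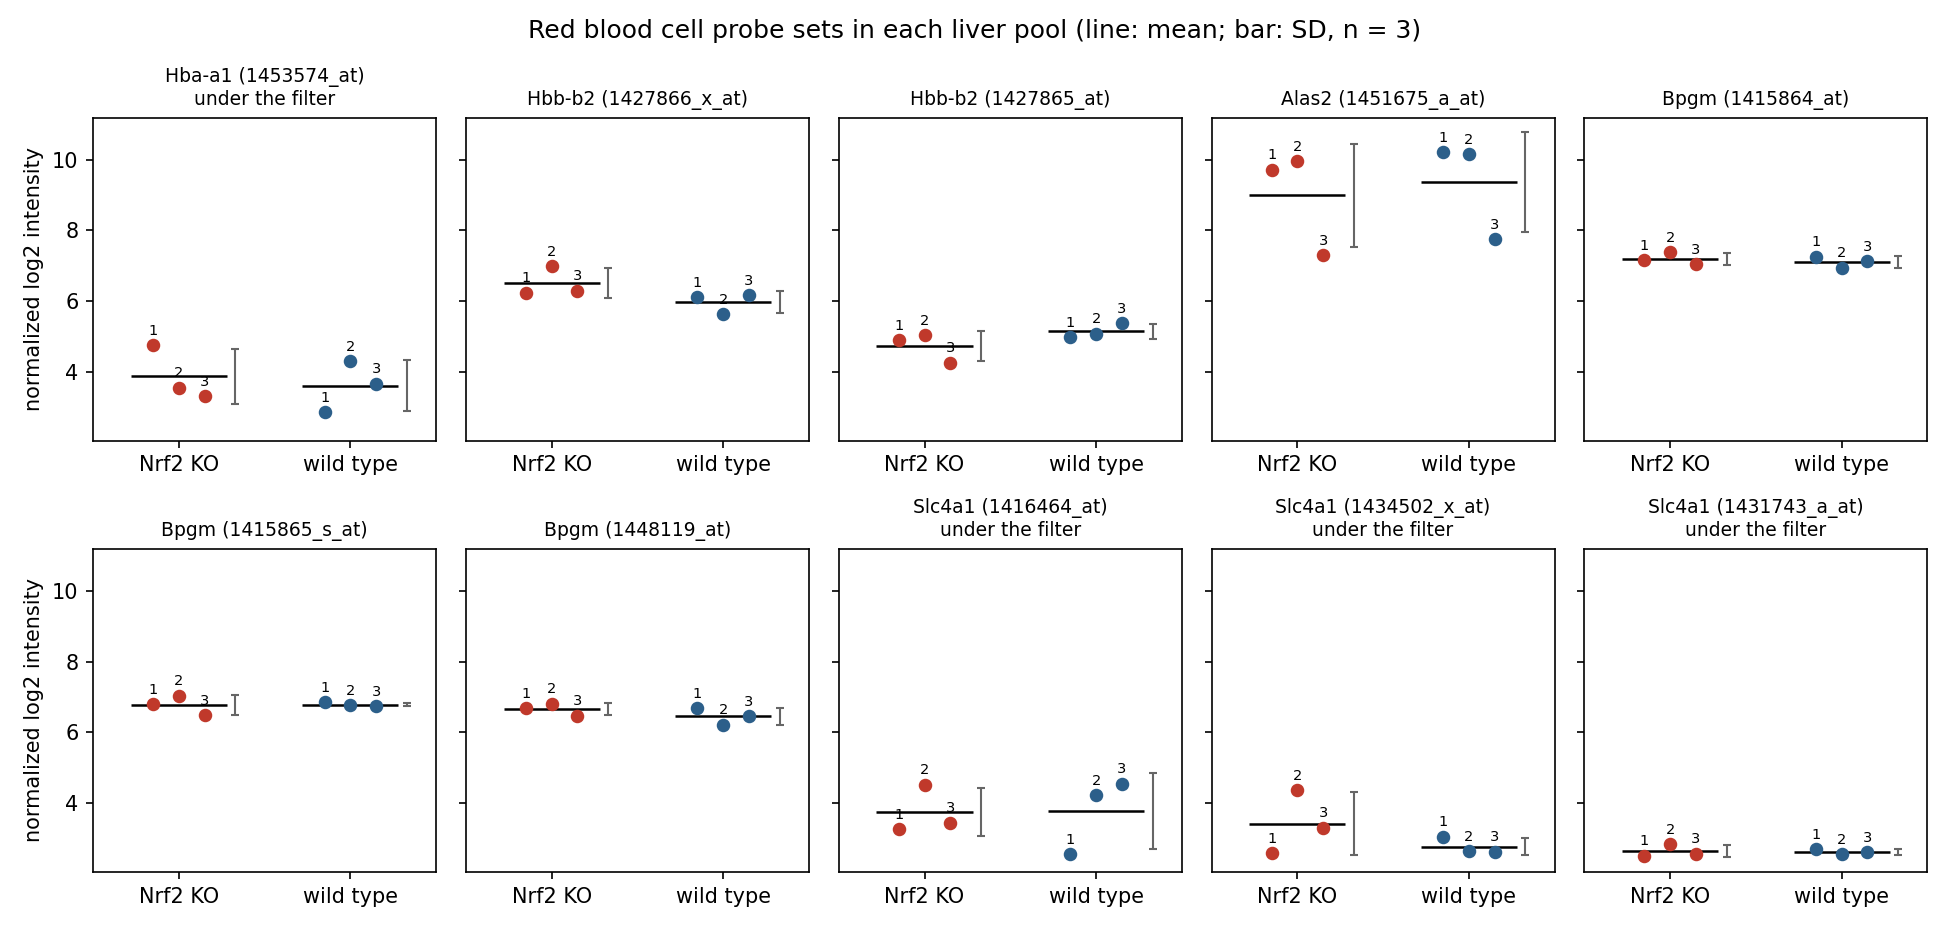
Normalized log2 intensity (vertical axis) of the 10 member probe sets in the 3 knockout pools (red, left) and the 3 wild-type pools (blue, right) of each panel. Numbers are the labels' replicate numbers, lines are group means and grey bars are SD. Alas2 is low in the pool numbered 3 of each genotype, while the other tested members vary less.

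Among the globins, Hbb-b2, the minor adult beta chain of one mouse haplotype, had 2 tested probe sets, and their differences had opposite signs. C57BL mice carry Hbb-bs and Hbb-bt in its place, and which haplotypes these pools held was not tested. The brighter, 1427866_x_at, had intensities of 60.4, 113 and 78.5 in knockout pools, against 76.6, 35.9 and 76.5 in wild-type pools. Its suffix marks probes that can bind other transcripts, so signal from other beta globins can enter it. On the deposited scale the groups overlapped. After normalization the 3 knockout pools lay above the 3 wild-type pools, with normalized log2 values of 6.50 ± 0.42 in knockout pools, against 5.97 ± 0.30 in wild-type pools (SD, n = 3 pools each). The difference was 0.54 ± 0.24 log2 (SE), or 1.45-fold, with a 95% interval from -0.01 to 1.08 and a limma adjusted p of 0.657. Knockout pool 2 was the highest and wild-type pool 2 the lowest, and without knockout pool 2 the difference was 0.30.

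The other Hbb-b2 probe set, 1427865_at, read 21.1, 25.8 and 14.7 in knockout pools, against 31.5, 22.7 and 42.0 in wild-type pools. Here the wild-type mean was the higher, the groups overlapped, and the lowest value was that of knockout pool 3. The difference was -0.42 ± 0.25 log2 with an interval from -1.0 to 0.16 (limma adjusted p = 0.747). Over the 6 pools the 2 probe sets had a Pearson correlation of -0.10, so they do not give a common profile of Hbb-b2 there. Taken as deviations from the mean of each genotype, their values correlated at 0.53. Both correlations are descriptions without a test. Averaging the 2 probe sets gave 0.06 log2 between the genotypes.

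The only single-gene probe set of Hba-a1, an alpha chain, was 1453574_at, and it was dim. It read 18.7, 5.80 and 4.88 in knockout pools, against 2.53, 11.4 and 8.68 in wild-type pools. The pools were interleaved, and 1 pool, knockout 1, stood above the others. Its log2 difference of 0.26 ± 0.48 spanned -0.83 to 1.36 (limma adjusted p = 0.959, fit without the filter). Leaving out knockout pool 1 gave -0.18, and leaving out wild-type pool 1 gave -0.11. In mean brightness it stood at the 34.3 percentile of all probe sets. That low value says nothing about alpha globin as a whole, because the probe sets that are bright carry the Hba-a1 and Hba-a2 symbols together.

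The 4 probe sets annotated to several globins were bright and differed little between the genotypes. The one annotated to 4 beta globin symbols, 1417184_s_at, had intensities of 5866, 7746 and 5973 in knockout pools, against 6533, 5241 and 6981 in wild-type pools. Its log2 difference was 0.18 ± 0.12, with an interval from -0.10 to 0.46 (limma adjusted p = 0.769). Among those annotated to both adult alpha chains, 1452757_s_at read 7700, 9093 and 7937 in knockout pools, against 8745, 6911 and 9191 in wild-type pools. Its groups were interleaved, with a difference of 0.07 ± 0.10 log2 and an interval from -0.16 to 0.30. The remaining alpha probe sets, 1417714_x_at and 1428361_x_at, had differences of 0.15 ± 0.19 and 0.18 ± 0.17 log2.

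In all 4 of these joint signals the groups overlapped and the normalized knockout mean was the higher. On the deposited scale that order was turned at 1452757_s_at, which averaged 8244 in knockout pools, against 8282 in wild-type pools. Their limma adjusted p-values ran from 0.769 to 0.918. The upper ends of the 4 intervals lay between 1.23-fold and 1.5-fold, and the lower ends between 0.823-fold and 0.936-fold. A larger genotype difference in the normalized signal of these bright globin probe sets falls outside them. Probe sets for embryonic globins, Hba-x, Hbb-bh1 and Hbb-y, were all dim, at most 12.4 in knockout pools, against 15.1 in wild-type pools.

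Knockout pool 2 had the highest normalized value at all 4 joint globin probe sets. The lowest was knockout pool 3 at 3 of them and wild-type pool 2 at the remaining one. On the deposited scale, where overall brightness differed between arrays, wild-type pool 2 was the lowest at all 4. There the highest at 1452757_s_at was wild-type pool 3 at 9191, against 9093 in knockout pool 2. From the lowest to the highest normalized pool, the knockout differed by 1.21-fold to 1.82-fold at the 4 probe sets, against 1.10-fold to 1.25-fold for the wild type. At 1452757_s_at the wild type had the wider spread, 1.25-fold against 1.21-fold. The deposited intensities spread by 1.18-fold to 1.65-fold in knockout pools, against 1.33-fold to 1.54-fold in wild-type pools. Centred on the mean of the 6 pools, the average of the 4 stood at 0.05, 0.40 and -0.23 log2 in knockout pools, against -0.07, -0.19 and 0.04 log2 in wild-type pools. Pairs among the 4 correlated over the 6 pools at 0.80 to 0.99. These probe sets share transcripts, so such correlations are no independent evidence.

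**Figure D2:**
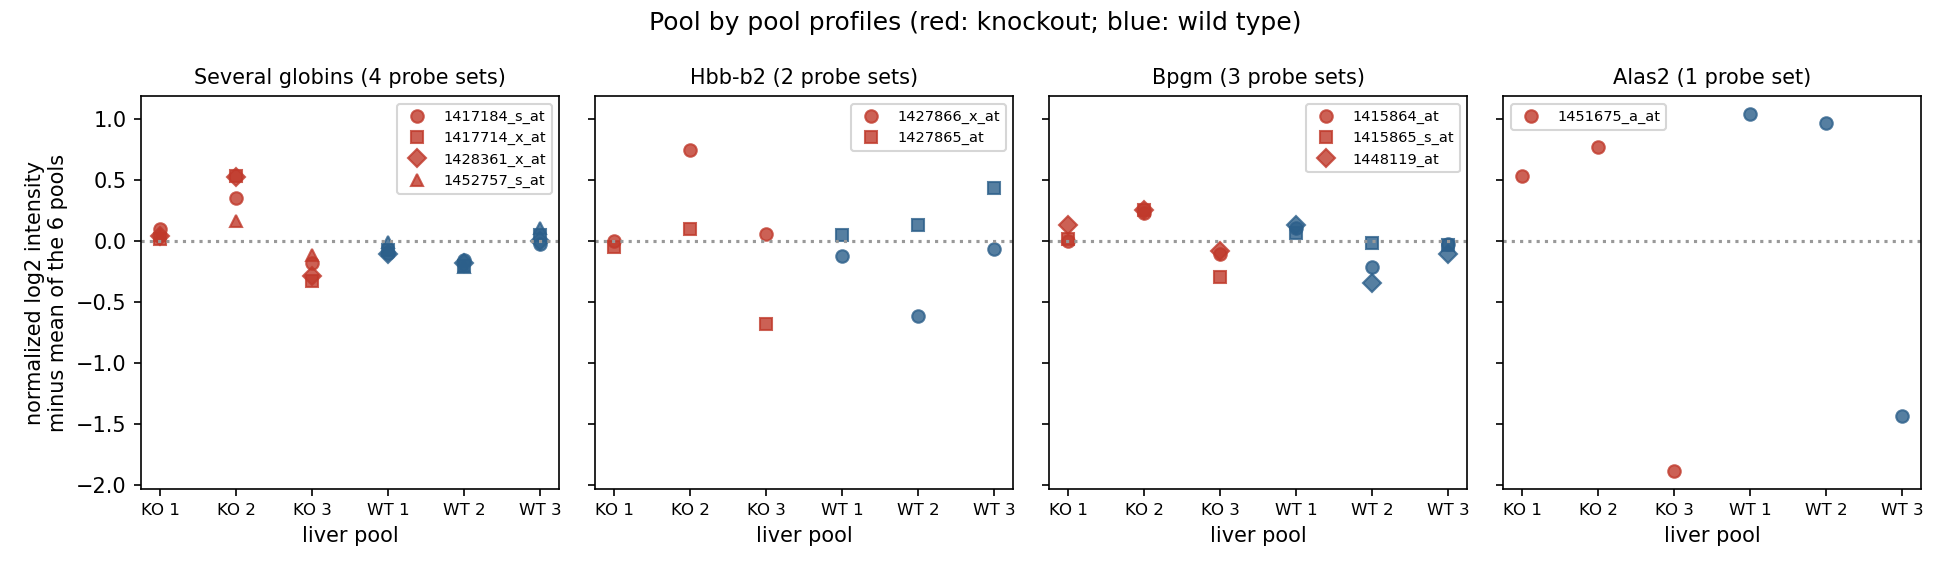
Normalized log2 intensity minus the mean of the 6 pools (vertical axis) by pool, with knockout pools in red at the left and wild-type pools in blue at the right of each panel, and 1 marker shape per probe set. The joint globin probe sets and Bpgm peak in knockout pool 2, the Hbb-b2 probe sets part from each other, and Alas2 reaches -1.88 in knockout pool 3 and -1.43 in wild-type pool 3.

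Alas2, the heme synthesis enzyme of the red cell lineage, showed the widest spread of any tested member, and it lay within the genotypes. The probe set, 1451675_a_at, had intensities of 693, 907 and 164 in knockout pools, against 1415, 956 and 243 in wild-type pools. The lowest value of each genotype belonged to the pool that the labels number 3, and the groups overlapped. Within the genotypes the highest pool exceeded the lowest by 6.30-fold among knockout pools, against 5.56-fold among wild-type pools, on the normalized scale. Normalized values were 8.99 ± 1.47 log2 in knockout pools, against 9.37 ± 1.41 log2 in wild-type pools (SD, n = 3 pools each).

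Against this spread the genotype difference of Alas2 was -0.39 ± 0.81 log2 (SE), with an interval from -2.22 to 1.45 and a limma adjusted p of 0.948. Its direction hung on single pools. It was 0.46 without knockout pool 3, against -1.20 without wild-type pool 3. Leaving out wild-type pool 1 gave 0.04, and leaving out wild-type pool 2 gave 0.00. The interval covers both a 2.73-fold increase and a decrease to 0.215 of the wild-type level. Compared without pairing, these pools leave the effect of the genotype on Alas2 largely undetermined. By replicate number, normalized values were 9.71, 9.95 and 7.30 log2 in knockout pools, against 10.22, 10.15 and 7.75 log2 in wild-type pools. With that number as a block, the difference had an unadjusted limma p of 0.00669 (limma adjusted p = 0.367). The numbers were not taken as pairs, for the reason given at the end.

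The within-genotype SD of Alas2 was 1.44 log2, against a median of 0.20 over the tested probe sets. Of the 22519 probe sets tested, 33 including that of Alas2 had an SD as large or larger. The brighter Hbb-b2 probe set was at the 84.9 percentile by this measure and the dimmer at the 80.0 percentile, while the Bpgm probe sets lay between the 37.4 and 50.6 percentiles. The pools low in Alas2 were not uniformly low in globin. After normalization knockout pool 3 was the lowest or next to lowest at all 4 joint globin probe sets. Wild-type pool 3 was there above knockout pool 1 at 2 of the 4 and above the other wild-type pools at each. Over the 6 pools Alas2 correlated with the joint globin probe sets at 0.00 to 0.37, with the Hbb-b2 probe sets at -0.06 and 0.37 and with the Bpgm probe sets at 0.26 to 0.74, all as descriptions from the same arrays.

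Bpgm, the red cell enzyme that makes 2,3-bisphosphoglycerate, varied least within the genotypes among the tested members, and its 3 probe sets had small differences between the genotypes. The brightest, 1415864_at, read 117, 150 and 138 in knockout pools, against 179, 98.8 and 153 in wild-type pools. The groups were interleaved, and the difference was 0.08 ± 0.14 log2 with an interval from -0.24 to 0.41 (limma adjusted p = 0.934). It turned to -0.01 without knockout pool 2, to 0.00 without wild-type pool 2 and to -0.06 without normalization between arrays. The probe set 1415865_s_at read 90.7, 117 and 90.6 in knockout pools, against 132, 86.8 and 117 in wild-type pools. Its difference was -0.01 ± 0.16 log2, the smallest of the members by size. The remaining probe set, 1448119_at, read 83.8, 98.7 and 90.0 in knockout pools, against 117, 57.3 and 93.6 in wild-type pools.

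The difference at 1448119_at was 0.21 ± 0.17 log2, and the interval ran from -0.17 to 0.58 (limma adjusted p = 0.814). The upper ends of the 3 intervals lay between 1.28-fold and 1.5-fold. After normalization knockout pool 2 was the highest of the 6 at each Bpgm probe set, as at the joint globin signals. Among the deposited intensities wild-type pool 1 was the highest at each Bpgm probe set. The correlation of the Bpgm probe sets with the mean profile of the joint globin probe sets was 0.73 to 0.84 over the 6 pools, and among themselves they correlated at 0.57 to 0.93.

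Slc4a1, the anion exchanger of the red cell membrane, had 3 probe sets, all under the brightness filter. The brightest, 1416464_at, read 3.90, 16.3 and 5.84 in knockout pools, against 0.705, 10.5 and 21.3 in wild-type pools. The knockout pools lay within the range of the wild-type pools, and the difference of -0.03 ± 0.56 log2 had an interval from -1.29 to 1.24 (limma adjusted p = 0.997, fit without the filter). It turned positive in 8 of 16 alternatives. The probe set 1434502_x_at read 0.623, 14.1 and 4.78 in knockout pools, against 3.89, 0.674 and 1.03 in wild-type pools, with a difference of 0.65 ± 0.41 log2 (limma adjusted p = 0.847). Its high value was again knockout pool 2. The dimmest, 1431743_a_at, stayed at or under 1.63 on all arrays. Slc4a1 is a defining gene of the red cell membrane, and its intervals leave room for a large change in both directions at the brightest of its probe sets.

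**Figure D3:**
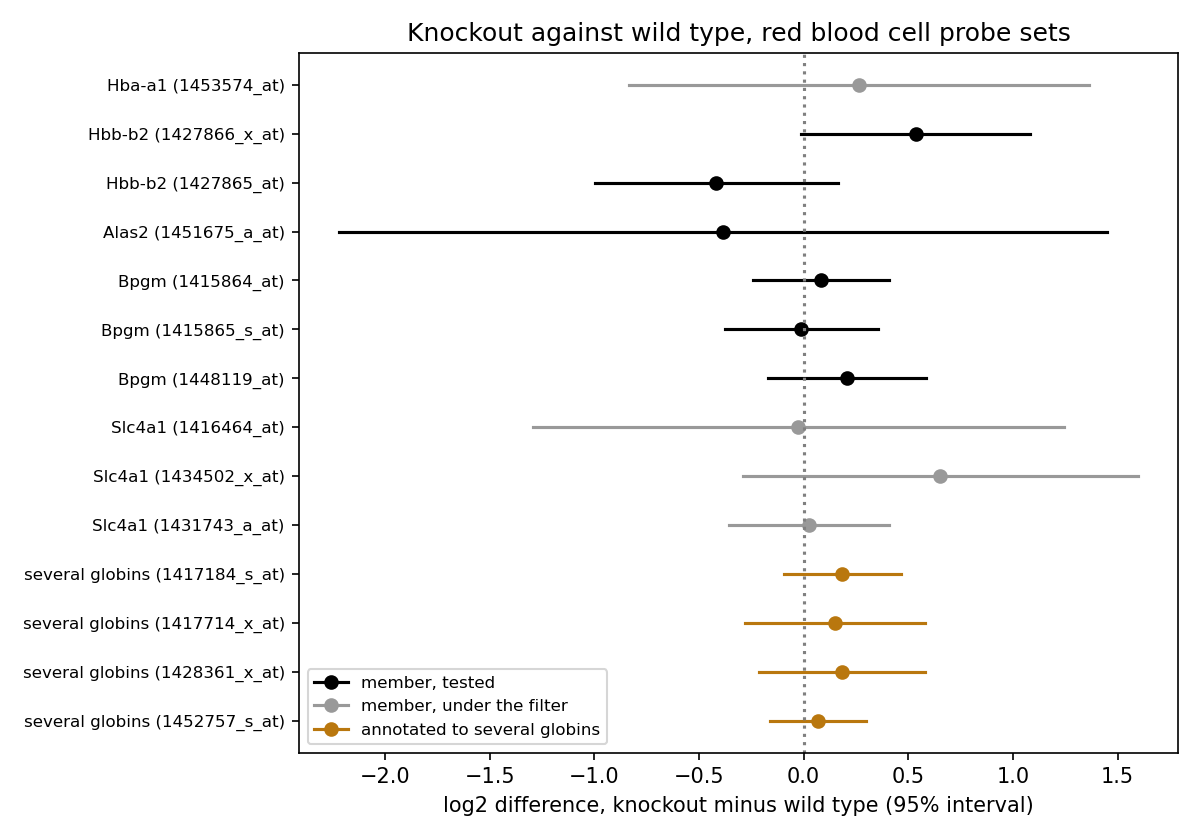
Log2 difference, knockout minus wild type (horizontal axis), with its 95% interval for the 10 members (black where tested, grey under the filter) and for the 4 probe sets annotated to several globins (orange). Each interval includes 0, those of the joint globin probe sets and Bpgm are narrow, and that of Alas2 runs from -2.22 to 1.45.

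Other genes of the red cell lineage were read from lists of their roles, each gene at its brightest tested probe set. Over all 11102 tested genes 0.144% passed, 8.22% had an unadjusted p under 0.05, 51.4% were higher in the knockout, and the median difference was 0.01 log2. Of 20 red cell membrane genes, 7 were tested, 3 higher and 4 lower. By limma 0 passed, and 1, Gypc, had an unadjusted p under 0.05. The glycophorin gene Gypc was at 0.35 ± 0.15 log2, the beta spectrin gene Sptb at -0.73 ± 0.32, the actin-bundling gene Dmtn at -0.35 ± 0.20 and the membrane scaffold gene Mpp1 at 0.11 ± 0.12. The list median was -0.06 log2, and 0.05 without knockout pool 2, and Mpp1 was at -0.06 without normalization between arrays. Of 14 erythroid transcription factor and receptor genes, 10 were tested, and by limma 0 passed, with 0 at an unadjusted p under 0.05. Of these 6 were higher and 4 lower, the median being 0.08 log2, and -0.04 without normalization between arrays, which moved the median of all genes to -0.14. Klf1, which switches on adult beta globin, was at 0.35 ± 0.20, the bridging cofactor gene Ldb1 at 0.29 ± 0.19, Sox6, a repressor of embryonic globin, at 0.17 ± 0.15 and the coactivator-binding gene Cited2 at -0.21 ± 0.19. Gata1, the master factor of the lineage, was under the filter.

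Genes of heme synthesis and of iron uptake by red cell precursors were lower for 10 of 14 tested genes, Alas2 among them, the median being -0.18 log2. By limma 0 passed, and 3 had an unadjusted p under 0.05, all lower in the knockout. The mitochondrial iron importer gene Slc25a37 was at -0.46 ± 0.12 log2 (limma adjusted p = 0.402). It read 158, 144 and 202 in knockout pools, against 279, 210 and 288 in wild-type pools. After normalization the groups did not overlap at this gene and 3 others of the list, where 13.9% of all tested genes had groups that did not overlap. The iron-sulfur cluster gene Glrx5 was at -0.28 ± 0.11, the heme synthesis gene Uros at -0.28 ± 0.11 and the transferrin receptor gene Tfrc at -0.43 ± 0.19. The arrays read bulk liver RNA, so the cells that gave the signal of these genes cannot be told. The genes are therefore not read as marks of red cells alone.

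Among 12 tested genes of red cell enzymes and maturation, 6 were higher and 6 lower, the median being -0.01 log2. By limma 0 passed, and 3 had an unadjusted p under 0.05, 1 higher and 2 lower. As in the heme list, the cells that gave these signals cannot be told from bulk liver RNA. The flavin and biliverdin reductase gene Blvrb was at -0.42 ± 0.11 log2, the tetraspanin gene Tspan33 at 0.33 ± 0.11, the ubiquitin ligase gene Ube2o at -0.45 ± 0.17 and the peroxiredoxin gene Prdx2 at 0.10 ± 0.08. In the globin family list Hbb-b2 alone of 12 genes was tested. For the clearance of old red cells and free hemoglobin, 8 of 13 genes were higher and 5 lower, the median being 0.07 log2, or -0.09 without normalization between arrays. Of the 13, 0 passed by limma, with 0 at an unadjusted p under 0.05. There the haptoglobin gene Hp was at 0.12 ± 0.07, the Kupffer cell gene Clec4f at -0.21 ± 0.13, the heme oxygenase gene Hmox1 at -0.27 ± 0.17 and the hemopexin gene Hpx at 0.09 ± 0.06.

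**Figure D4:**
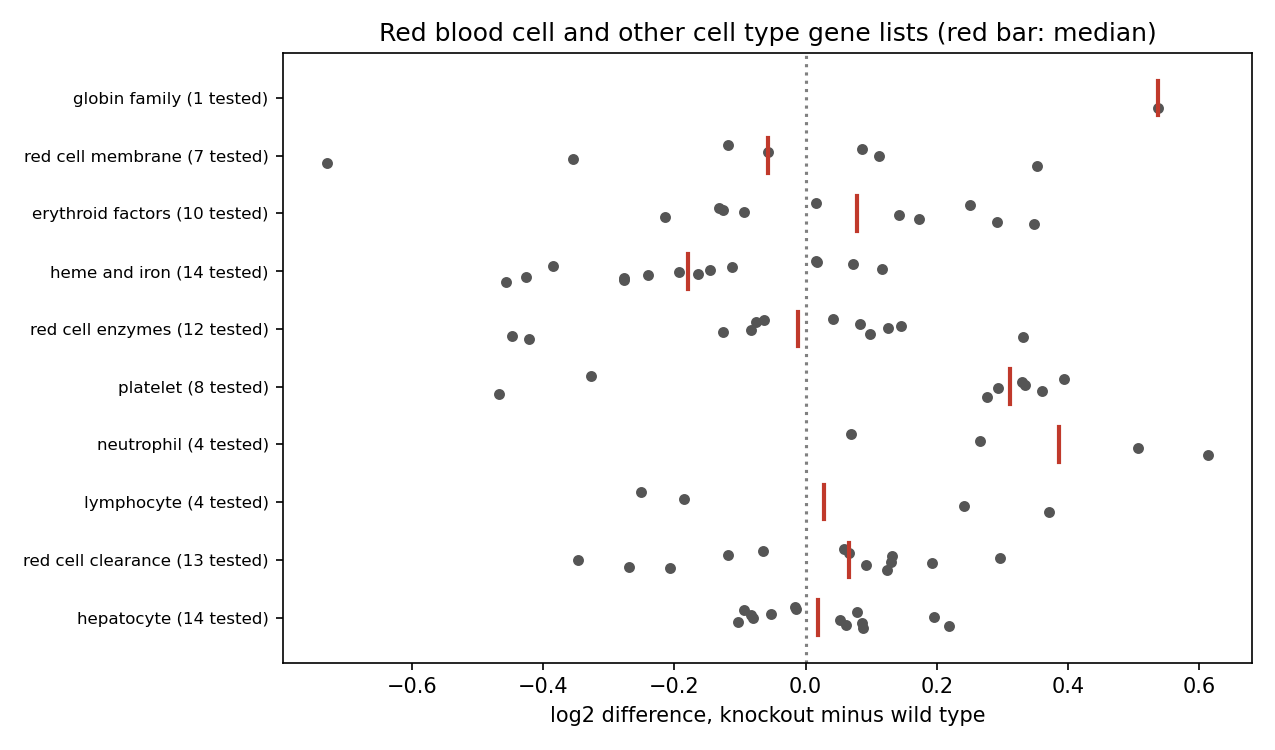
Log2 difference, knockout minus wild type (horizontal axis), of each tested gene (grey points) in 10 lists of red cell and other cell type genes (rows), with the list median as a red bar. Heme and iron genes lie mostly to the left of 0, platelet and neutrophil genes mostly to the right, and no gene shown passed the test.

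Markers of other blood cells were measured on the same arrays. Of 12 platelet markers 8 were tested, 6 of them higher in the knockout, and the median was 0.31 log2. Their summed normalized intensity was 377 to 497 in knockout pools, against 336 to 381 in wild-type pools, and knockout pool 2 had the largest sum. The receptor gene Clec1b was at 0.28 ± 0.16, the von Willebrand factor receptor gene Gp1bb at -0.47 ± 0.29, the tubulin gene Tubb1 at 0.36 ± 0.23 and the chemokine gene Pf4 at 0.29 ± 0.20 log2. Without knockout pool 2 the platelet median was 0.12. All 4 tested neutrophil markers of 12 were higher, with a median of 0.39 log2 and sums of 130 to 237 in knockout pools, against 123 to 175 in wild-type pools. The neutrophil median was 0.02 without wild-type pool 2, and 0.18 with the dim markers included. Neither is a median of the same 4 markers, as leaving out a pool renewed the brightness filter and changed which markers were tested. The granule protein gene Ngp was at 0.61 ± 0.37, the calprotectin gene S100a8 at 0.51 ± 0.35, the G-CSF receptor gene Csf3r at 0.27 ± 0.27 (0.02 without wild-type pool 2) and S100a9, the partner of S100a8, at 0.07 ± 0.29, or -0.05 without normalization between arrays. Elane, Mpo and Prtn3 were under the filter.

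Of 12 lymphocyte markers 4 were tested, with a median of 0.03 log2, or -0.08 without normalization between arrays, -0.16 without knockout pool 2 and 0.31 without knockout pool 3. The sums were 78.0 to 219 in knockout pools, against 91.0 to 301 in wild-type pools. The B cell genes Ms4a1 and Cd79b were at 0.37 ± 0.38 (0.02 without wild-type pool 3) and 0.24 ± 0.35 (-0.15 without knockout pool 2), the natural killer cell gene Klrd1 at -0.19 ± 0.27 and the IgM heavy chain gene Ighm at -0.25 ± 0.62, and the T cell genes Cd3e, Cd3d and Cd3g were under the filter. Of 14 tested hepatocyte markers 7 were higher and 7 lower, the median being 0.02 log2, or -0.05 without normalization between arrays. Their summed normalized intensity was 107709 to 108801 in knockout pools, against 104919 to 105424 in wild-type pools. The apolipoprotein genes Apoa1 and Apob were at 0.09 ± 0.06 and 0.22 ± 0.16, the urea cycle gene Cps1 at 0.06 ± 0.06 and the fibrinogen gene Fgb at 0.09 ± 0.08. Without wild-type pool 3, Apob was at 0.01. The groups did not overlap in the normalized hepatocyte sum, but they did in the sum of the deposited intensities, which was 100381 to 110078 in knockout pools, against 105186 to 111040 in wild-type pools. In these 4 lists 0 genes passed by limma and 0 had an unadjusted p under 0.05. The part of blood held in each pool in the values of the red cell genes was not tested.

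Genes whose pool pattern was most like that of the globins or of Alas2 were sought among tested genes that spanned at least 1 log2 over the 6 pools. Likeness is the Pearson correlation over the 6 pools of these same arrays, a description for which no test is given. Most like the mean of the Hbb-b2 probe sets were Tcf24 (0.98), the protease gene Htra1 (0.95), the interferon-induced gene Rsad2 (0.93), Arhgap9 (0.93), Lysmd2 (0.92), Gnat1 (0.91), Gltp (0.91) and Lrrc4c (0.91). As the 2 Hbb-b2 probe sets did not follow each other over the 6 pools, this order rests on a mean of unlike profiles. The joint globin signals and Alas2 were taken as further profiles after their values were seen. Most like the joint globin signals were Grk3 (0.97), Pcdh17 (0.96), Rsad2 (0.96), the IgA heavy chain gene Igha (0.96), the interferon-induced gene Gbp2 (0.95), the cholesterol synthesis gene Lss (0.94), Gltp (0.94) and Gnat1 (0.94). Each of them was highest in knockout pool 2. For Rsad2 the intensities were 106, 183 and 90.6 in knockout pools, against 147, 91.5 and 142 in wild-type pools.

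Most like Alas2 were Pacs2 (0.996), Ripor2 (0.98), the glucose transporter gene Slc2a1 (0.98), the sulfotransferase gene Chst13 (0.98), Ptpn22 (0.97), Zfp784 (0.97), the secreted kinase gene Fam20c (0.97) and the ephrin gene Efna1 (0.96). All 8 were lower in the pool numbered 3 than in the other pools of the same genotype. Efna1 read 570, 545 and 203 in knockout pools, against 706, 554 and 345 in wild-type pools. Slc2a1 read 120, 140 and 78.8 in knockout pools, against 184, 113 and 97.0 in wild-type pools. None was a gene of the red cell lists, but the search could name few of those. It left out the members and every gene spanning less than 1 log2, which left 1399 genes. At a correlation of at least 0.9 stood 210 of 11102 genes for Alas2, 144 for the joint globin signals and 95 for Hbb-b2.

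**Figure D5:**
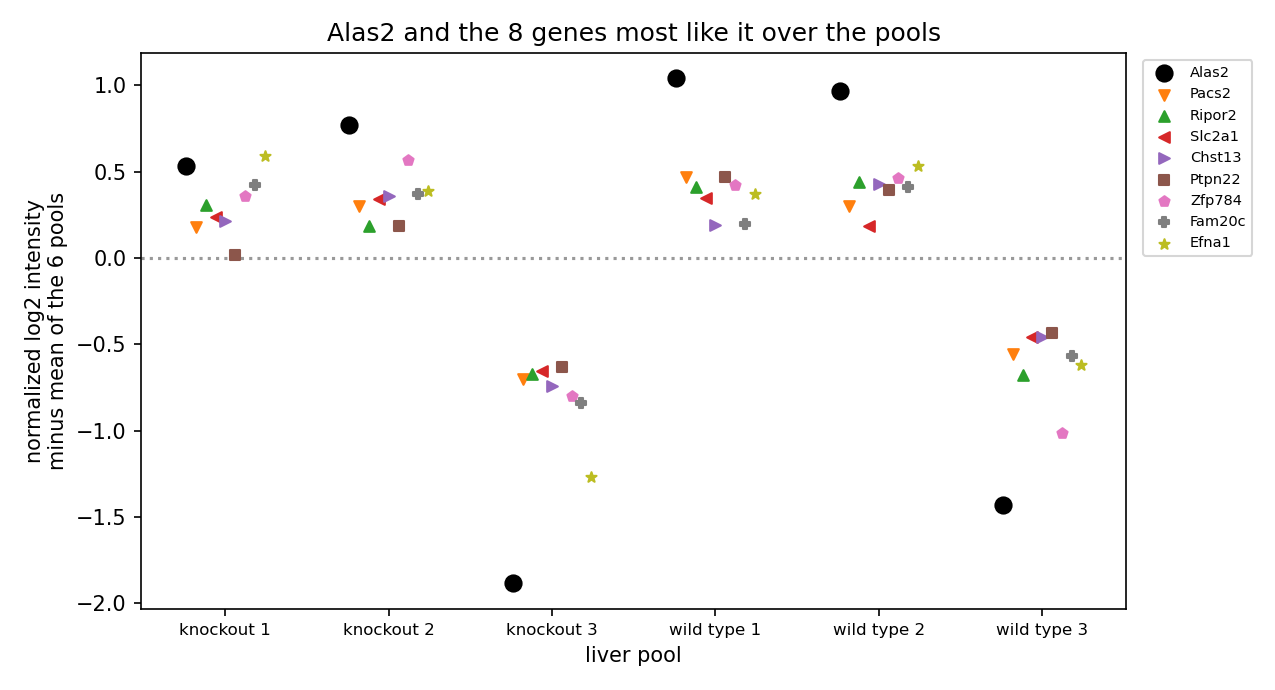
Normalized log2 intensity minus the mean of the 6 pools (vertical axis) for Alas2 (large black circles) and the 8 genes most like it, by pool, knockout at the left and wild type at the right. All 9 genes are below their mean in knockout pool 3 and wild-type pool 3 and above it in the remaining pools, with the widest span for Alas2.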

How the data were processed

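Liver RNA, 3 arrays per genotype, was measured on 1-colour Affymetrix arrays. The authors deposited linear probe set intensity values, 0.0174 to 16555. The submitters' processing notes name GCOS 1.4. Its algorithm and scaling were not given in the sources used here. Detection calls were not used here.

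After adding 5.26 (25th percentile of the deposited values) and taking log2, arrays were quantile normalized. Without the 64 control probe sets, 22519 of 45037 probe sets, at or above the median mean log2 value, were tested with limma 3.58.1 in R 4.3.3 (intensity trend, Benjamini-Hochberg over all tested, threshold 0.05). Fold changes understate dim probe sets. Symbols were updated by Entrez identifier. 3 arrays per genotype limit the precision. The procedure was tested on simulated data.

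Named were all members, Nfe2l2, 8 genes most like each profile and the 4 smallest p-values of each list. Members and lists were chosen with earlier results of these data known. Alternatives covered normalization, pseudocount, filter, variance model, replicate number as a block and each pool left out. Replicate numbers were not taken as pairs.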

Additional observations from a re-analysis of the deposited data

How the results depend on the processing

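No member passed in any of the 16 alternatives run for each of the 5 member genes; the lowest limma adjusted p was 0.367, for Alas2. The count of all tested probe sets called was 32, and 143 without normalization between arrays, 20 unfiltered, 19 filtered at the 70th percentile, 18 without the intensity trend and 18 to 29 leaving out a pool. Without normalization the median of all genes was -0.14, against 0.01, 0 members had groups that did not overlap (7.03% of all tested probe sets), and the medians of the membrane, factor, heme, enzyme, clearance and hepatocyte lists were -0.21, -0.0394, -0.32, -0.14, -0.0874 and -0.0487. There Bpgm (-0.0552), Mpp1 (-0.0558), Prdx2 (-0.0534), S100a9 (-0.0487), Apoa1 (-0.00764), Cps1 (-0.0116) and Fgb (-0.0104) turned negative. Slc4a1 turned to 0.0434 with median centring, 0.16 with a pseudocount of 1.31, 0.0683 with array weights and 0.22 as the mean of its probe sets. The hepatocyte median was 0.0569 with median centring and 0.0539 with array weights, the factor median 0.14 with the stricter filter and 0.0249 with array weights, and the globin family median 0.17 with no filter. The stricter filter left no neutrophil marker to give a median.

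Leaving out a pool, differences ran from -1.20 to 0.46 for Alas2, -0.011 to 0.16 for Bpgm, -0.18 to 0.62 for Hba-a1, -0.63 to 0.36 for Slc4a1, -0.10 to 0.36 for S100a9, -0.15 to 0.44 for Cd79b, -0.41 to 0.076 for Klrd1 and -0.76 to 0.45 for Ighm. Medians ran from -0.0767 to 0.23 for tested members, 0.0207 to 0.19 for factors, -0.0418 to 0.0519 for membrane, 0.12 to 0.42 for platelet, -0.0327 to 0.0385 for hepatocyte, -0.23 to -0.075 for heme, 0.0204 to 0.46 for neutrophil and -0.16 to 0.31 for lymphocyte genes. The brightness filter was renewed in each of these fits, so the genes behind a list median can differ from those of the main fit. With 1 pool left out, 1 to 3 of the 6 tested members had groups that did not overlap, as did 21.2% to 27.7% of all tested probe sets. The cause was not tested.

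With the replicate number as a block, 32 probe sets passed and Alas2 stayed at -0.39 with an unadjusted p of 0.00669 (limma adjusted p = 0.367). Deviations of same-numbered pools correlated at 0.13, 0.05 and 0.25. Pools numbered 1 correlated best with each other, as did pools numbered 3, but pools numbered 2 did not. As this did not hold for each number, the numbers were not taken as pairs.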
